A study of Mus musculus with 22 samples.

Results

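The lysosome and autophagy genes examined here were 45 of the 55401 gene identifiers counted by RNA-seq in serially passaged mouse embryonic fibroblasts (MEFs), and all 45 were found and passed the filter on low counts. They were given as a list of names whose rule uses no measured value, but the list was made with earlier results of these data known. The list was split by role into 6 lysosomal genes that are enriched in phagocytes, 17 general hydrolases and their activators, 5 membrane and lipid transport proteins, 4 subunits of the proton pump, 3 transcription factors and 10 autophagy genes. The libraries came from 2 sets of MEFs, primary cells that reach replicative senescence after repeated passaging. In the S6K1 set, 4 libraries were early WT (passage 3), 4 were late WT (passage 8) and 3 were late S6K1 KO (passage 8). In the S6K1/S6K2 set, 4 were early WT (passage 3), 4 were late WT (passage 8) and 3 were late S6K1/S6K2 double KO (DKO, passage 8). By the study's methods, WT and S6K1 KO MEFs were littermates, whereas WT controls of DKO MEFs came from WT mothers of earlier breeding and DKO embryos from crosses without S6K2, so genotype and litter cannot be told apart in the S6K1/S6K2 set. The deletions were germline, and early-passage KO or DKO MEFs were not analysed here. The labels do not say which libraries share an embryo or a culture, so p-values measure the spread between these libraries.

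Lysosomes are acidic compartments in which hydrolases break down proteins, glycans and lipids that arrive by endocytosis, phagocytosis or autophagy. The proton pump, or V-ATPase, acidifies them, membrane proteins such as LAMP1 line them, and transcription factors of the TFEB family bind E-box sequences, written CACGTG, at many lysosomal genes. Senescent cells are known for enlarged lysosomes, and the enzyme behind their β-galactosidase staining is encoded by Glb1. Macrophages are rich in lysosomes and carry several cathepsins at levels that few other cells reach, so a culture of fibroblasts that holds some macrophages adds their transcripts to the total.

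Total counts were 10742454 to 17314832 per library, and a count of 3 corresponded to 0.173 to 0.279 CPM (the count scaled to the library's total). Such limits cover counting error only. Levels below are TMM-scaled CPM within a MEF set, and values of a gene are listed in the order of the replicate numbers. Rps6kb1, which encodes S6K1, was at 13.9 to 22.6 CPM in late KO and 55.1 to 73.6 in late WT libraries of the S6K1 set, and at 21.0 to 28.9 in DKO and 66.2 to 90.8 in late WT libraries of the other set. Rps6kb2, which encodes S6K2, was at 0.497 to 1.39 CPM in DKO and 11.5 to 16.96 in the late WT libraries beside them. The 10 fibroblast markers, among them Col1a1 and Vim, were detected in every group. In the S6K1 set they summed to 28286 to 35649 CPM in early WT, 18933 to 25703 in late WT and 23624 to 25483 in late KO libraries. The sums in the S6K1/S6K2 set were 30615 to 39822 CPM in early WT, 20373 to 27473 in late WT and 25416 to 28534 in DKO libraries. Late WT sums lay below early WT sums in both sets without overlap, but sums weigh abundant genes most. In late against early WT MEFs edgeR called 2 of the 10 markers lower and 0 higher in each set. Over all genes 5.97% were called lower in the S6K1 set and 4.89% in the S6K1/S6K2 set. On the log2 scale 4 of the 10 markers lay above 0 in the S6K1 set and 3 in the S6K1/S6K2 set. In the S6K1 set the early WT libraries stood apart in pairs: in 24 of the 45 members replicates 1 and 3 were both above replicates 2 and 4, and in 6 both below. The same split was not counted over all genes. It was not limited to the members, because over all genes with enough counts libraries differed less within these pairs than across them. Chi-square per degree of freedom was 68.3 for replicates 1 and 3, 64.3 for replicates 2 and 4, and 109 to 266 across the pairs. The Y-linked genes summed to 202 and 237 CPM in replicates 1 and 3 and to 0.146 and 0.869 CPM in replicates 2 and 4. The mean level of these genes served as a covariate in an alternative fit.

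Counts of the 45 members made up 1.08 to 1.55% of all counts in early WT libraries of the S6K1 set, 1.76 to 2.26% in late WT and 1.69 to 1.93% in late KO libraries. The shares in the S6K1/S6K2 set were 1.43 to 1.95% in early WT, 2.25 to 2.59% in late WT and 2.01 to 2.14% in DKO libraries. Late WT libraries lay above early WT libraries in both sets without overlap. Per kilobase of exon, the aspartic protease gene Ctsd was the most abundant member in early WT MEFs of both sets, at a mean of 831 CPM per kilobase in the S6K1 set and 924 in the S6K1/S6K2 set. Lamp1, Ctsl, Ctsb and Psap, which encodes the precursor of the saposins, took ranks 2 to 5 in both sets in different orders. The least abundant were Tfeb at 2.25 and 1.95 CPM per kilobase, Mitf at 1.24 and 0.925, and Atp6v0d2, which encodes a proton pump subunit of macrophages and osteoclasts, at 0.119 and 0.0901. Ctss was at 27.4 and 54.8 CPM per kilobase.

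Late and early WT MEFs were set against each other to ask what changes with passage. In the S6K1 set 11 of 45 members rose and 0 fell, against 6.96% of all genes tested that were called higher and 5.97% called lower. The count was 23 with the Y-linked covariate, 6 without late WT replicate 1 and 7 without early WT replicate 2. The median log2 difference over the 45 members was 0.42, against -0.04 over all 14132 genes tested. The S6K1/S6K2 set had 16 members that rose and 0 that fell (Ctsc was called lower in some alternative fits), where 8.28% and 4.89% of 14365 genes were called higher and lower, and the medians were 0.35 and 0.01. The 2 passage comparisons share no library. All 11 members that rose in the S6K1 set were among the 16 of the S6K1/S6K2 set, that is 100% of the first list and 68.8% of the second. Over all genes, 599 were called higher in both sets, 60.9% and 50.3% of the respective lists. The interaction test of the passage effect between sets, edgeR over all 22 libraries, called 0 of 45 members (1, Atp6v0d2, at an unadjusted p under 0.05, and 0 by DESeq2), against 0.457% of all genes called higher in the S6K1/S6K2 set and 0.255% called lower.

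Macrophage markers moved with the members. The 20 markers, among them Csf1r, Adgre1, Cybb and C1qa, summed to 817, 839, 1101 and 511 CPM in early WT and 10934, 5263, 9244 and 6099 in late WT libraries of the S6K1 set. In the S6K1/S6K2 set they summed to 861, 597, 1684 and 2004 CPM in early and 9245, 12755, 10634 and 7472 in late WT libraries. Of the 20, 20 rose in the S6K1 set and 18 in the S6K1/S6K2 set (median log2 differences 2.95 and 2.58), and each was detected in every group. In bulk RNA, fewer cells of a type and less RNA per cell cannot be told apart. Over the same comparison the 6 phagocyte-enriched members summed to 943, 859.8, 864 and 836 CPM in early and 2039.8, 1344, 1653 and 1444 in late WT libraries of the S6K1 set, and the 39 general members to 13241, 11053, 11743 and 11618 and 20769, 16712, 18628 and 16562 CPM. The part of macrophage transcripts in the rise of the members was not tested. The 8 osteoclast markers, of which Dcstamp was at 0 in every library, summed to 16.5 to 47.8 CPM over the 6 groups.

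Of the 6 phagocyte-enriched genes, 4 (Ctss, Atp6v0d2, Lgmn and Ctsz) rose in both sets. Ctss encodes cathepsin S, a protease of antigen-presenting cells (chromosome 3, 95526786 to 95556405 in GRCm38, gene span). It was at 36.7, 44.98, 46.7 and 20.4 CPM in early WT and 452, 224, 334 and 299 in late WT libraries of the S6K1 set. Its levels in the S6K1/S6K2 set were 42.6, 32.3, 102 and 121 CPM in early WT and 735, 886, 1008 and 573 in late WT. Every late WT library was above every early WT library, and the fitted group difference was 8.79-fold in the S6K1 set (log2 fold change 3.14 ± 0.28 SE, adjusted p = 3.80e-05 by edgeR's quasi-likelihood F test, p adjusted over all genes by Benjamini-Hochberg) and 10.8-fold in the other (log2 fold change 3.43 ± 0.51 SE, adjusted p = 0.00222). Atp6v0d2 had counts of 5, 3, 5 and 6 in early WT and 34, 36, 74 and 26 in late WT libraries of the S6K1 set. Its counts in the S6K1/S6K2 set were 0, 2, 9 and 4 in early WT and 80, 112, 92 and 110 in late WT. The groups did not overlap, but early counts lay close to 0, and the gene passed the low-count filter through the late libraries, so the fitted log2 differences of 3.19 and 4.79 (adjusted p = 0.000272 and 0.000593) depend on the prior count.

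Lgmn, which encodes the asparaginyl endopeptidase legumain (chromosome 12, 102394082 to 102439728), was at 320.5, 335, 257 and 301 CPM in early and 596, 384, 519 and 435 in late WT libraries of the S6K1 set. The corresponding levels in the S6K1/S6K2 set were 392, 389, 355 and 368 CPM and 599.7, 668, 650.4 and 577. The rises were 1.60-fold and 1.66-fold, without overlap between early and late libraries in either set (adjusted p = 0.0185 and 0.00263). Ctsz, a carboxypeptidase cathepsin, rose 1.68-fold in the S6K1 set, where early WT libraries were at 378 to 402 CPM and late WT at 569 to 795 (adjusted p = 0.00648). It rose 1.66-fold in the S6K1/S6K2 set, where 405 to 627 and 608 to 924 CPM overlapped (adjusted p = 0.0262), and that call was lost in 5 of 11 fits without 1 library and with the Y-linked covariate.

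The remaining pair of phagocyte-enriched genes did not pass the test. Ctsc, which activates granule proteases by trimming their amino ends, was at 79.5 to 144 CPM in early and 73.4 to 118 in late WT libraries of the S6K1 set. In the S6K1/S6K2 set it was at 137, 122, 134 and 128 CPM in early and 102, 111, 87.5 and 81.7 in late WT, so that all late libraries lay below all early ones (log2 -0.45 ± 0.16 SE, adjusted p = 0.0772). Ctsc was called lower there by DESeq2, by edgeR with only the 2 groups compared, and without DKO replicate 1 or 2. Ctsh, an aminopeptidase cathepsin, differed by a log2 value of 0.59 ± 0.29 SE in the S6K1 set and -0.02 ± 0.27 in the other, with overlapping libraries (adjusted p = 0.21 and 0.971).

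**Figure D1:**
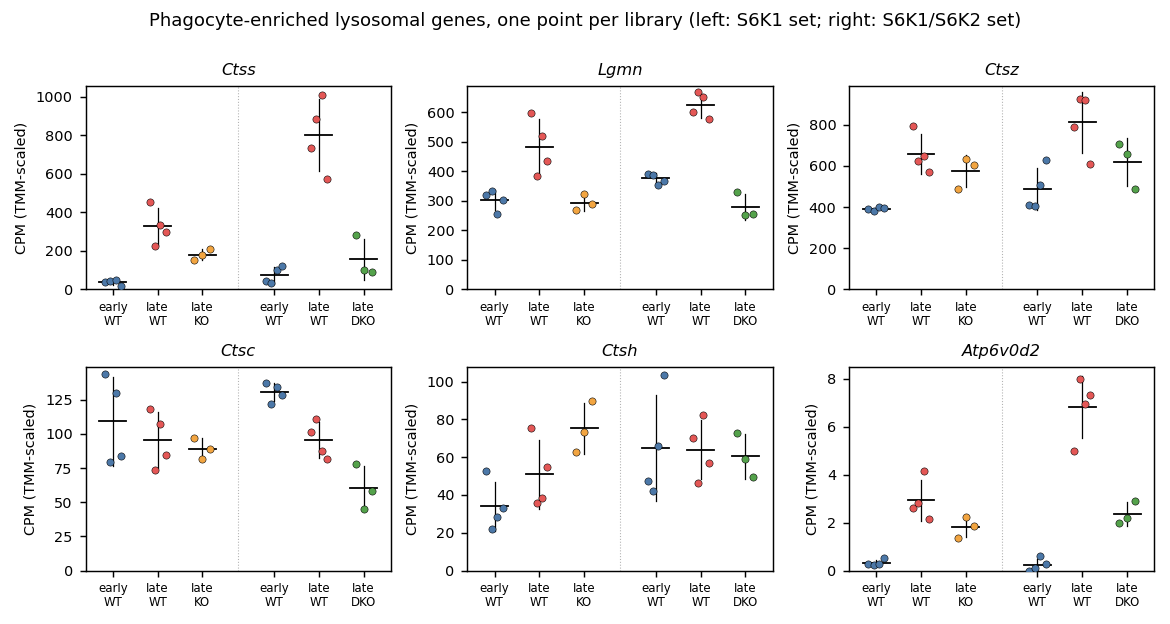
Levels of the 6 phagocyte-enriched genes in TMM-scaled CPM (y axis, linear from 0), with 1 point per library for early WT, late WT and late KO or DKO MEFs of the S6K1 set (left) and the S6K1/S6K2 set (right); horizontal lines are means and vertical lines are 1 SD. Ctss ran from 32.3 to 121 CPM in early WT to 573 to 1008 in late WT and 89.5 to 281 in DKO libraries of the S6K1/S6K2 set, whereas Ctsc was lowest in DKO libraries at 44.7 to 77.7 CPM.

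Among the 39 general members, 7 rose in the S6K1 set and 12 in the S6K1/S6K2 set, and the 7 were all within the 12. Lipa, the acid lipase that frees cholesterol from its esters (chromosome 19, 34492316 to 34527474), was at 63.7, 73.2, 73.0 and 68.7 CPM in early and 197, 180.2, 205 and 121 in late WT libraries of the S6K1 set. Early WT libraries of the S6K1/S6K2 set were at 88.4, 80.9, 91.6 and 86.7 CPM and late WT at 168, 214, 181 and 148. No late library overlapped the early ones (log2 1.33 ± 0.16 and 1.03 ± 0.12 SE, adjusted p = 0.000273 and 0.000633). Ctsb, a major cysteine protease of lysosomes (chromosome 14, 63122462 to 63145923), was at 1909, 1769.6, 2209 and 2369.6 CPM in early and 3625, 4136, 4435 and 3429.6 in late WT libraries of the S6K1/S6K2 set. It rose 1.89-fold there and 1.71-fold in the S6K1 set, again without overlap (adjusted p = 0.00293 and 0.0306), and lost the call in the S6K1 set in 4 of 11 fits without 1 library. Ctsd was at 1365 to 2939 CPM in early and 3609 to 6009 in late WT libraries of the S6K1 set (2.07-fold, adjusted p = 0.0358), and it lost the call in 6 of 11 fits that left out 1 library. It was at 1668 to 3290.3 and 4778 to 7871 CPM in the S6K1/S6K2 set (2.56-fold, adjusted p = 0.00671).

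Hexa, the α subunit of the hexosaminidase that degrades GM2 ganglioside (chromosome 9, 59539540 to 59565109), was at 356, 439, 367 and 417 CPM in early and 724, 711, 610.3 and 516 in late WT libraries of the S6K1 set. The S6K1/S6K2 set gave 303, 269.7, 355 and 447 CPM in early and 592, 649, 688 and 530.4 in late WT. The rise was 1.62-fold and 1.79-fold without overlap (adjusted p = 0.0133 and 0.00555). Ppt1, which removes palmitate from proteins, rose 1.38-fold and 1.61-fold (adjusted p = 0.0308 and 0.00515), and its call in the S6K1 set was lost in 5 of 11 fits without 1 library and without the low-count filter. Gusb, the β-glucuronidase, rose 1.66-fold and 1.62-fold (adjusted p = 0.00483 and 0.0127). Man2b1, an α-mannosidase, passed the test in the S6K1/S6K2 set, with overlapping libraries (log2 0.60 ± 0.18 SE, adjusted p = 0.0461), and had a log2 difference of 1.05 ± 0.37 SE in the S6K1 set (adjusted p = 0.0866). Ctsl was at 498 to 1014 CPM in early and 1055 to 1470.3 in late WT libraries of the S6K1 set, and at 858 to 1641 and 1381 to 1655 CPM in the other set (adjusted p = 0.0555 and 0.27). In the S6K1 set 5 of 6 other settings called Ctsl higher. Ctsk, the collagen-degrading cathepsin of osteoclasts that fibroblasts also express, spanned 63.1 to 326 CPM among late WT libraries of the S6K1 set (adjusted p = 0.294 and 0.687).

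Several genes that are often read as lysosome or autophagy markers did not pass the test in either set. Glb1, counted at the longer of 2 gene identifiers that carry its name (chromosome 9, 114401078 to 114474379), was at 116, 103, 109 and 106 CPM in early and 94.1, 102, 123 and 84.3 in late WT libraries of the S6K1 set, and at 136, 139, 136 and 149 in early and 135, 146, 125 and 136 in late WT libraries of the S6K1/S6K2 set. The groups overlapped in both sets, with log2 differences of -0.11 ± 0.13 and -0.05 ± 0.10 SE (adjusted p = 0.627 and 0.771). Lamp2, a receptor of chaperone-mediated autophagy, differed by 0.00 ± 0.14 and 0.04 ± 0.12 SE on the log2 scale (adjusted p = 0.996 and 0.827). Lamp1 was at 1312, 471, 1126 and 508 CPM in early WT libraries of the S6K1 set, the pairs described above, and at 897 to 1249.9 in late WT (log2 0.32 ± 0.30 SE, adjusted p = 0.538); with the Y-linked covariate it was called higher there. Its log2 difference in the S6K1/S6K2 set was 0.11 ± 0.15 SE (adjusted p = 0.638). Of the 5 membrane and transport genes, which also include the cholesterol transporters Npc1 and Npc2 and the calcium channel gene Mcoln1, 0 passed the edgeR test in either set (1 and 2 at an unadjusted p under 0.05).

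In the proton pump, Atp6v1a, its catalytic subunit, was at 159, 163, 189 and 201 CPM in early and 281, 260.0, 278 and 229 in late WT libraries of the S6K1/S6K2 set. It rose 1.39-fold in the S6K1 set and 1.47-fold in the S6K1/S6K2 set, without overlap (adjusted p = 0.0377 and 0.0082). The call in the S6K1 set was lost in 6 of 11 fits without 1 library, without the low-count filter and with only the 2 groups compared. Atp6v0d1, the widely expressed counterpart of Atp6v0d2, missed the threshold in both sets (log2 0.51 ± 0.16 and 0.49 ± 0.17 SE, adjusted p = 0.0501 and 0.0705), although 4 of 6 other settings called it higher in the S6K1 set and DESeq2 did so in the other set. The 4 pump members lay between 0.26 and 0.51 on the log2 scale in the S6K1 set and between 0.44 and 0.56 in the S6K1/S6K2 set.

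Autophagy genes gave 0 calls of 10 by edgeR fitted to the S6K1 set (4 at an unadjusted p under 0.05) and 3 in the S6K1/S6K2 set. Map1lc3b, whose product LC3B coats autophagosomes, was at 172, 120.2, 162 and 106 CPM in early and 188, 218, 208 and 174 in late WT libraries of the S6K1 set (adjusted p = 0.0748). It was called higher there by edgeR with all 6 groups in 1 fit, with the Y-linked covariate and without early WT replicate 1, and by DESeq2. The S6K1/S6K2 set had 135, 135, 159.8 and 171 CPM in early and 252, 236, 242 and 196 in late WT, a 1.54-fold rise (adjusted p = 0.00549). Its libraries did not overlap in either set. Becn1, a subunit of the lipid kinase that starts autophagosomes, rose 1.56-fold in the S6K1/S6K2 set (adjusted p = 0.0116), and Gabarapl1, an LC3 relative, rose 1.43-fold (adjusted p = 0.0294). In the S6K1 set their log2 differences were 0.36 and 0.77 (adjusted p = 0.0772 and 0.0744). Sqstm1, the autophagy receptor p62, was at 384 to 529.9 and 486 to 628 CPM in the S6K1 set and at 451 to 719 and 618 to 693 CPM in the S6K1/S6K2 set, with overlap in both (adjusted p = 0.18 and 0.232). Ulk1, the kinase that initiates autophagy, and Map1lc3a had log2 differences of 0.13 and 0.17 in the S6K1 set and of 0.15 and 0.08 in the other. All 10 autophagy members lay between -0.08 and 0.77 in the first set and between 0.08 and 0.64 in the second.

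Of the 3 transcription factors, Tfeb was at 9.86 to 14.7 CPM in early and 7.56 to 14.3 in late WT libraries of the S6K1 set and at 7.45 to 14.8 and 7.63 to 9.73 CPM in the S6K1/S6K2 set (adjusted p = 0.805 and 0.292). Tfe3 differed by log2 values of 0.24 ± 0.18 and 0.21 ± 0.11 SE (adjusted p = 0.423 and 0.196). Mitf, which also acts in macrophages and osteoclasts, was at 6.23, 6.94, 5.49 and 4.41 CPM in early and 13.3, 10.48, 11.2 and 6.63 in late WT libraries of the S6K1/S6K2 set. It passed the threshold narrowly there, with overlapping libraries (log2 0.85 ± 0.26 SE, adjusted p = 0.0497), and lost the call in 9 of 11 fits that left out 1 library. Its log2 difference in the S6K1 set was 0.44 ± 0.23 SE (adjusted p = 0.244).

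**Figure D2:**
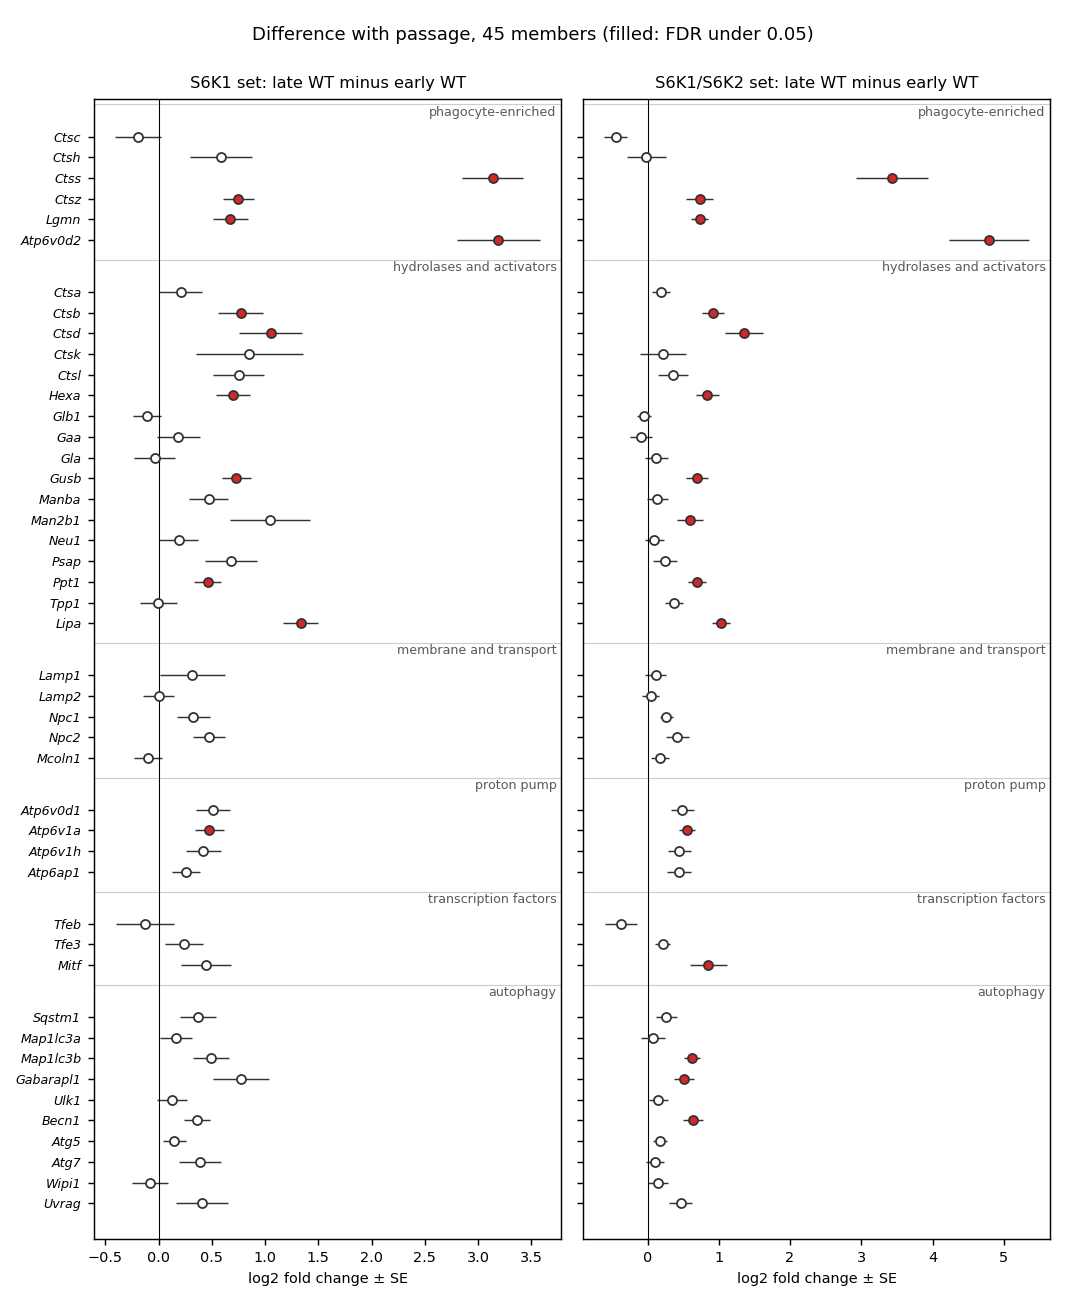
Log2 fold change ± SE of late WT against early WT MEFs (x axis) for the 45 members grouped by role (y axis), in the S6K1 set (left) and the S6K1/S6K2 set (right); filled points passed an FDR of 0.05. Filled points numbered 11 and 16, all to the right of 0, and Ctss and Atp6v0d2 lay at log2 values above 3 in both sets.

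**Figure D3:**
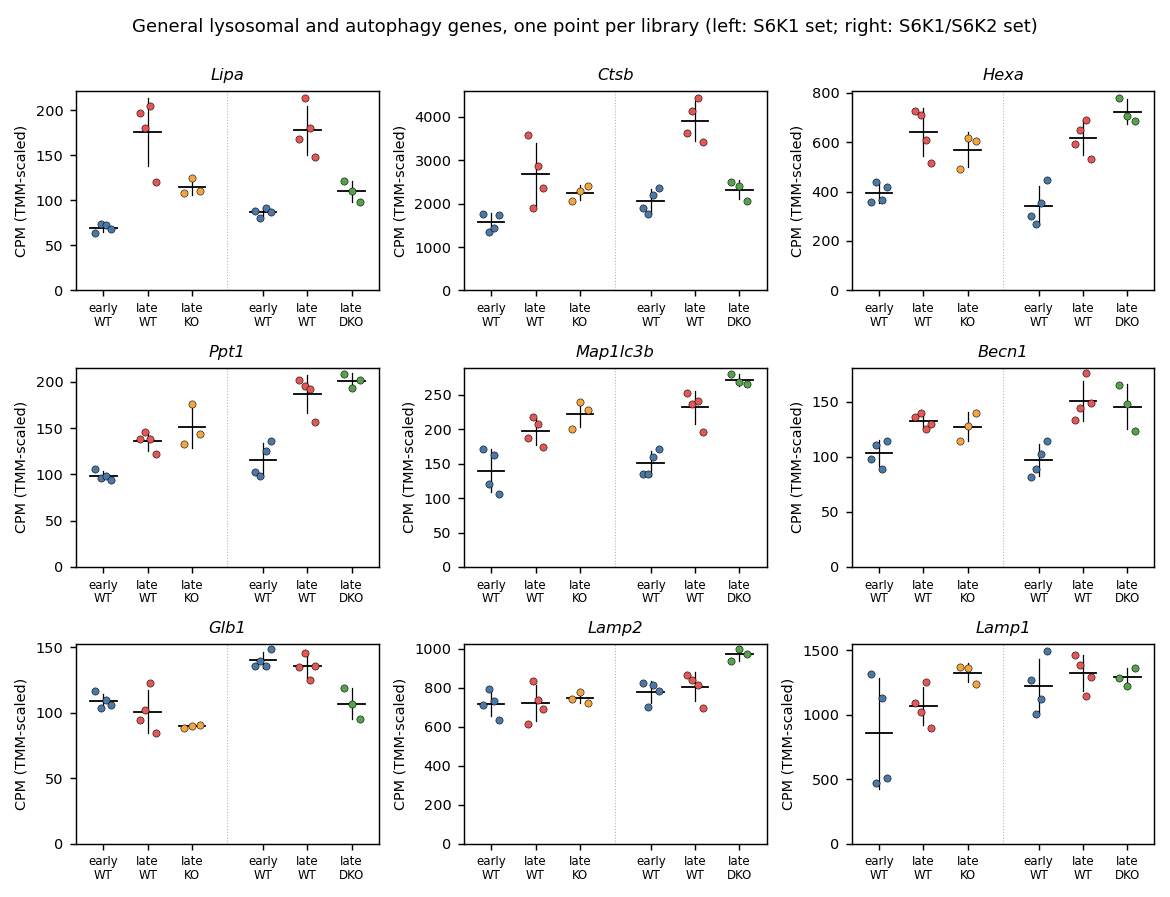
Levels of 9 general members in TMM-scaled CPM (y axis, linear from 0), with 1 point per library in the 6 groups; horizontal lines are means and vertical lines 1 SD. Every late WT library of the S6K1/S6K2 set lay above every early WT and DKO library for Lipa and Ctsb, whereas Hexa was at 530.4 to 688 CPM in late WT and 684 to 780.3 in DKO libraries.

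Promoter sequences were examined because the TFEB family is known to act through E-boxes. RefSeq windows from 250 bases before to 50 bases after 1 annotated start per gene (GRCm38.p6) were at hand for 38 of 45 members. CACGTG, which reads alike on both strands, was present in 13 of 38 members (34.2%) and in 8.09% of 27025 genes. The longer TCACGTGA, which contains CACGTG and also reads alike on both strands, was present in 6 members (15.8%) and in 1.12% of all genes. Of the 13 members with CACGTG, 3 rose with passage in the S6K1 set and 3 in the S6K1/S6K2 set, compared with 6 and 10 of the 25 members without it. The stretches below show the letters around CACGTG (capitals) in members that rose in both sets (Lgmn, Ctsd, Atp6v1a) and in members that passed in neither (Glb1, Lamp1, Mcoln1), each 5′ to 3′ on the strand of its gene, with the position of the motif relative to that start. For Lgmn and Atp6v1a that start lies inside the full span of the gene, which reaches further upstream, so their stretches lie within the span. Only 1 match per gene is shown, and Ctsd has another at -245, Mcoln1 at -71 and Lamp1 at -45, -28 and -15. The letters occur in members of either kind, and a match describes the sequence only.
Lgmn, chr12:102439125-102439152 (minus strand, motif at -49): ggaatgtctgtCACGTGgtccattttat
Ctsd, chr7:142387909-142387936 (minus strand, motif at -98): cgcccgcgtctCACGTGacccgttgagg
Atp6v1a, chr16:44139374-44139401 (minus strand, motif at -131): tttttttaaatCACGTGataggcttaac
Glb1, chr9:114401019-114401046 (plus strand, motif at -48): tgcttctgagtCACGTGgcctacagagg
Lamp1, chr8:13159089-13159116 (plus strand, motif at -61): gggcaagatatCACGTGgtccagcgccc
Mcoln1, chr8:3500463-3500490 (plus strand, motif at -45): ggcgccccgctCACGTGaccgcggcgca

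The rest of the pathway was taken from a list of 102 other lysosome, proton pump and autophagy genes. Of these, 19 rose and 5 fell in the S6K1 set, where 6.96% of all genes were called higher and 5.97% lower. In the S6K1/S6K2 set 22 rose and 3 fell, where the shares were 8.28% and 4.89%. The falls were thus no more frequent than over all genes. Median log2 differences were 0.21 in both sets, and 11 genes rose in both. Ctsf, another cysteine cathepsin, rose 1.92-fold and 2.101-fold (adjusted p = 0.00214 and 0.0022). Hgsnat and Galc, enzymes of heparan sulfate and galactolipid breakdown, also rose in the S6K1/S6K2 set (log2 0.91 and 0.74, adjusted p = 0.000902 and 0.0036). Igf2r, the receptor that sorts hydrolases to lysosomes, fell in the S6K1 set, with early WT libraries at 312 to 425 and late WT at 155 to 219.9 CPM (adjusted p = 0.00316). Pla2g15, a lysosomal phospholipase, rose 2.05-fold in the S6K1 set (adjusted p = 0.00132), and its log2 difference was 0.06 in the S6K1/S6K2 set. The difference between sets passed the interaction test for Pla2g15 (log2 -1.01 ± 0.19 SE, adjusted p = 0.00807).

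Late KO MEFs were compared with late WT MEFs to ask what depends on S6K1. By edgeR 0 of 45 members were called in either direction, 4 had an unadjusted p under 0.05, and DESeq2 called 2 lower. Over all genes tested 0.00708% were called higher and 0.0354% lower, so this comparison called few genes of any kind. Of these 14132 genes 1499 had an unadjusted p under 0.05, a share no smaller than that of the members. The 4 members were Lgmn, Lipa, Ctss and Gusb, with log2 differences of -0.72 ± 0.18, -0.61 ± 0.18, -0.85 ± 0.29 and -0.42 ± 0.15 SE (adjusted p = 0.198, 0.242, 0.325 and 0.355). Lgmn was at 269, 323 and 290.0 CPM in late KO libraries, all below the late WT values given above, and Ctss was at 155, 178 and 211 CPM, also below all of them. Lipa, at 109, 125 and 111 CPM, overlapped late WT. All 20 macrophage markers were below 0 on the log2 scale (median -0.87, 0 called by edgeR, 14 at an unadjusted p under 0.05), and their sum was 3519, 4199 and 4782 CPM in KO libraries. Their part was not tested. All 3 KO libraries held Y-linked transcripts and 1 of 4 late WT libraries did, and the Y-linked covariate also gave 0 calls.

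Relative to early WT, a comparison added after the levels had been seen, late KO MEFs had 12 members higher and 0 lower (5.93% and 5.24% of all genes called). It shares its libraries with those above. The 12 were Ctss, Atp6v0d2, Ctsz and Ctsh of the phagocyte-enriched genes, and Lipa, Ppt1, Ctsl, Atp6v0d1, Atp6v1a, Map1lc3b, Gabarapl1 and Sqstm1. Ctsz lost this call in 9 of 11 fits without 1 library, Sqstm1 in 7, and Ctsh and Ctsl in 6. Atp6v1a, Map1lc3b and Gabarapl1 each lost it in 5, Lipa in 2, Ppt1 and Atp6v0d1 in 1, and Ctss and Atp6v0d2 in 0. With the Y-linked covariate 8 members were called, 7 of them among the 12. Ctsz, Ctsh, Ctsl, Map1lc3b and Sqstm1 lost the call in that fit. Ctss was 4.87-fold, Lipa 1.65-fold and Ppt1 1.53-fold higher (adjusted p = 0.000927, 0.0208 and 0.0147). Of the macrophage markers 16 of 20 were also higher (median log2 difference 2.18). The count of members was 3 without KO replicate 3, 4 without KO replicate 2, and 5 without KO replicate 1 or without early WT replicate 2 or 4. Lgmn was not among them, at a log2 difference of -0.05 ± 0.18 SE from early WT (adjusted p = 0.89).

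DKO MEFs were compared with late WT MEFs to ask what differs when both kinases are absent. No library of this set lacked only S6K1 or only S6K2, so the part of each kinase cannot be told apart. Of 45 members 6 fell and 0 rose, where 3.95% of all genes were called lower and 0.821% higher, and the median log2 difference was -0.08 over the members and -0.01 over all genes. The 6 were Lgmn, Lipa, Ctsb, Npc1, Ctss and Ctsc. DKO libraries did not overlap late WT libraries for any of them, but the 6 were picked by a test on the same libraries. The share of all genes without overlap was not counted. Lgmn was at 329, 254 and 256 CPM in DKO libraries and fell by 1.16 on the log2 scale (SE 0.13, adjusted p = 0.00155), a call that held in each fit without 1 library. Ctss was at 281, 102 and 89.5 CPM, and its log2 difference was -2.35 ± 0.54 SE (adjusted p = 0.0339). This call was lost with the Y-linked covariate, without the low-count filter and in 4 of 11 fits without 1 library, and Y-linked transcripts were present in 1 of 3 DKO and 3 of 4 late WT libraries. Lipa was at 121, 110.1 and 98.3 CPM (log2 -0.69 ± 0.13 SE, adjusted p = 0.0147).

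Ctsb was at 2498, 2404 and 2066 CPM in DKO libraries, 0.594 times the late WT level (log2 -0.75 ± 0.17 SE, adjusted p = 0.0262). Its call was lost in 4 of 11 fits without 1 library and with only the 2 groups compared. Npc1, the membrane protein that exports cholesterol from lysosomes, was at 57.9, 58.8, 55.3 and 60.2 CPM in late WT and 39.1, 42.2 and 44.8 in DKO libraries (log2 -0.47 ± 0.10 SE, adjusted p = 0.0265). This call was lost in 5 of 11 fits without 1 library. It was also lost without the low-count filter, with all 6 groups in 1 fit and with only the 2 groups compared. Ctsc was at 77.7, 44.7 and 57.9 CPM, and its call (log2 -0.67 ± 0.17 SE, adjusted p = 0.0475) was lost in 10 of 11 fits without 1 library. RLE scaling, all 6 groups in 1 fit, the Y-linked covariate and a fit of only the 2 groups compared also lost it. Without DKO replicate 2 or without DKO replicate 3 there was 1 call, and without late WT replicate 2 there were 2. Gusb, Glb1 and Atp6v0d2 also lay below late WT without overlap but missed the threshold (log2 -0.63 ± 0.17, -0.34 ± 0.11 and -1.52 ± 0.50 SE, adjusted p = 0.0538, 0.106 and 0.119).

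The autophagy genes, the proton pump and the transcription factors gave 0 calls by edgeR in DKO against late WT MEFs, with 0 of 17 at an unadjusted p under 0.05 and log2 differences from -0.32 to 0.31. Tfeb was at 7.45, 7.15 and 9.41 CPM in DKO libraries, and Sqstm1 was at 632, 625 and 603 CPM in DKO and 618 to 693 in late WT libraries. Of the other 102 pathway genes 5 fell and 0 rose, a share near the 3.95% of all genes called lower. Scpep1, a lysosomal carboxypeptidase, fell by 1.30 on the log2 scale (adjusted p = 0.00428), and Hgsnat, Galc and Grn, which encodes progranulin, also fell. The fifth was Tcirg1, the proton pump subunit of osteoclasts and immune cells (adjusted p = 0.00577). It was at 83.0, 97.2, 80.0 and 87.4 CPM in late WT and 51.7, 45.6 and 43.3 in DKO libraries. Tcirg1 lies on chromosome 19, as does the deleted Rps6kb2, at 3896050 against 4156792 in GRCm38. Scpep1 lies on chromosome 11, as does the deleted Rps6kb1, at 88924020 against 86498869. Whether these positions matter was not tested. Macrophage markers fell as well, 19 of 20 (median log2 difference -2.45), and summed to 3358, 1019.8 and 896 CPM in the DKO libraries. DKO replicate 1 had the highest sum and also the highest Ctss and Lgmn of the 3. Without that replicate 6 members were called lower, 5 of them shared with the 6 above, and Npc1 was lost. The part of macrophage transcripts in these falls was not tested.

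The DKO and KO effects were compared directly by an interaction term over 22 libraries, in which edgeR and DESeq2 called 0 of 45 members (edgeR 4 at an unadjusted p under 0.05). Over all 14886 genes 0.0% were called higher and 0.00672% lower, and 1626 had an unadjusted p under 0.05. Ctsk had the largest difference of the 4, at 63.1 to 326 CPM in late WT and 84.6 to 104 in KO libraries of the S6K1 set and at 66.6 to 185 in late WT and 176 to 221 in DKO libraries (log2 1.88 ± 0.69 SE, adjusted p = 0.353). For Ctss the difference between the effects was -1.48 ± 0.60 SE on the log2 scale (adjusted p = 0.396).

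DKO MEFs were also set against early WT MEFs of the same set, a comparison added after the levels had been seen, which shares its libraries with those above. Of the 20 macrophage markers 0 were called higher by edgeR and 1 (Mrc1) lower, 3 had an unadjusted p under 0.05, and the median log2 difference was 0.09. Their sum was above all early WT libraries in DKO replicate 1 and within the early range in replicates 2 and 3. In this comparison 12 members were higher and 3 lower, where 9.34% and 8.92% of all genes were called higher and lower. Hexa was at 780.3, 706 and 684 CPM in DKO libraries, all above the early WT values (2.11-fold, log2 1.07 ± 0.17 SE, adjusted p = 0.00188). Map1lc3b was at 281, 268 and 266 CPM (1.80-fold, adjusted p = 0.00136) and Ppt1 at 209, 193 and 203 CPM (1.74-fold, adjusted p = 0.0029). These 3 were called in every fit without 1 library. Their log2 differences from late WT were 0.23, 0.23 and 0.11, none of which passed the test (adjusted p = 0.516, 0.372 and 0.739).

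The other members above early WT were Atp6v0d2, Mitf, Becn1, Npc2, Gabarapl1, Ctsd, Atp6ap1, Tpp1 and Atp6v1a. Atp6v0d2, with counts of 23, 22 and 46, stood at 1.97, 2.19 and 2.91 CPM, between early and late WT. Mitf was at 8.22, 16.2 and 14.2 CPM, all above early WT (log2 1.16 ± 0.28 SE, adjusted p = 0.0149). Npc2, a soluble cholesterol carrier, was at 1496, 1505 and 1162 CPM against 720.2 to 1152 in early WT (1.56-fold, adjusted p = 0.0243). Ctsd passed at 1.97-fold with overlap between the groups (adjusted p = 0.0313). Becn1, Gabarapl1 and Tpp1, a tripeptidyl peptidase, were 1.504-fold, 1.43-fold and 1.37-fold higher (adjusted p = 0.0192, 0.0309 and 0.039). Without 1 library Npc2, Ctsd, Atp6ap1 and Gabarapl1 each lost the call in 5 of 11 fits, and Becn1 in 4.

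The 3 members below early WT were Ctsc, Lgmn and Glb1. Ctsc was 0.461 times the early level (log2 -1.12 ± 0.18 SE, adjusted p = 0.00182) and was called in every fit without 1 library. Lgmn was 0.743 times (adjusted p = 0.0373) and Glb1, at 119, 106 and 95.1 CPM, 0.762 times the early level (adjusted p = 0.0282), both without overlap. Lgmn lost this call in 6 and Glb1 in 5 of 11 fits without 1 library, and both lost it without the low-count filter. Lgmn also lost it with only the 2 groups compared. Ctss, Lipa and Ctsb had log2 differences of 1.08 ± 0.50, 0.34 ± 0.13 and 0.17 ± 0.16 SE from early WT (adjusted p = 0.152, 0.0934 and 0.497). Without DKO replicate 2 the count was 5 in all (4 higher), and without DKO replicate 1, the one with the most macrophage transcripts, it was 6 higher and 3 lower. Without early WT replicate 1 or 2 it was 6 in all, and without DKO replicate 3 or early WT replicate 3 it was 9. Of the other 102 pathway genes 19 were higher and 4 lower, where 9.34% and 8.92% of all genes were called higher and lower. Ctsf led those that were higher (2.72-fold, adjusted p = 0.000597). Ctsf lies on chromosome 19, as does the deleted Rps6kb2, at 4855165 against 4156792 in GRCm38. Ctsf also rose with passage in WT MEFs of both sets. Whether its position matters was not tested, nor was it for Tcirg1 and Scpep1, whose positions are given above.

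**Figure D4:**
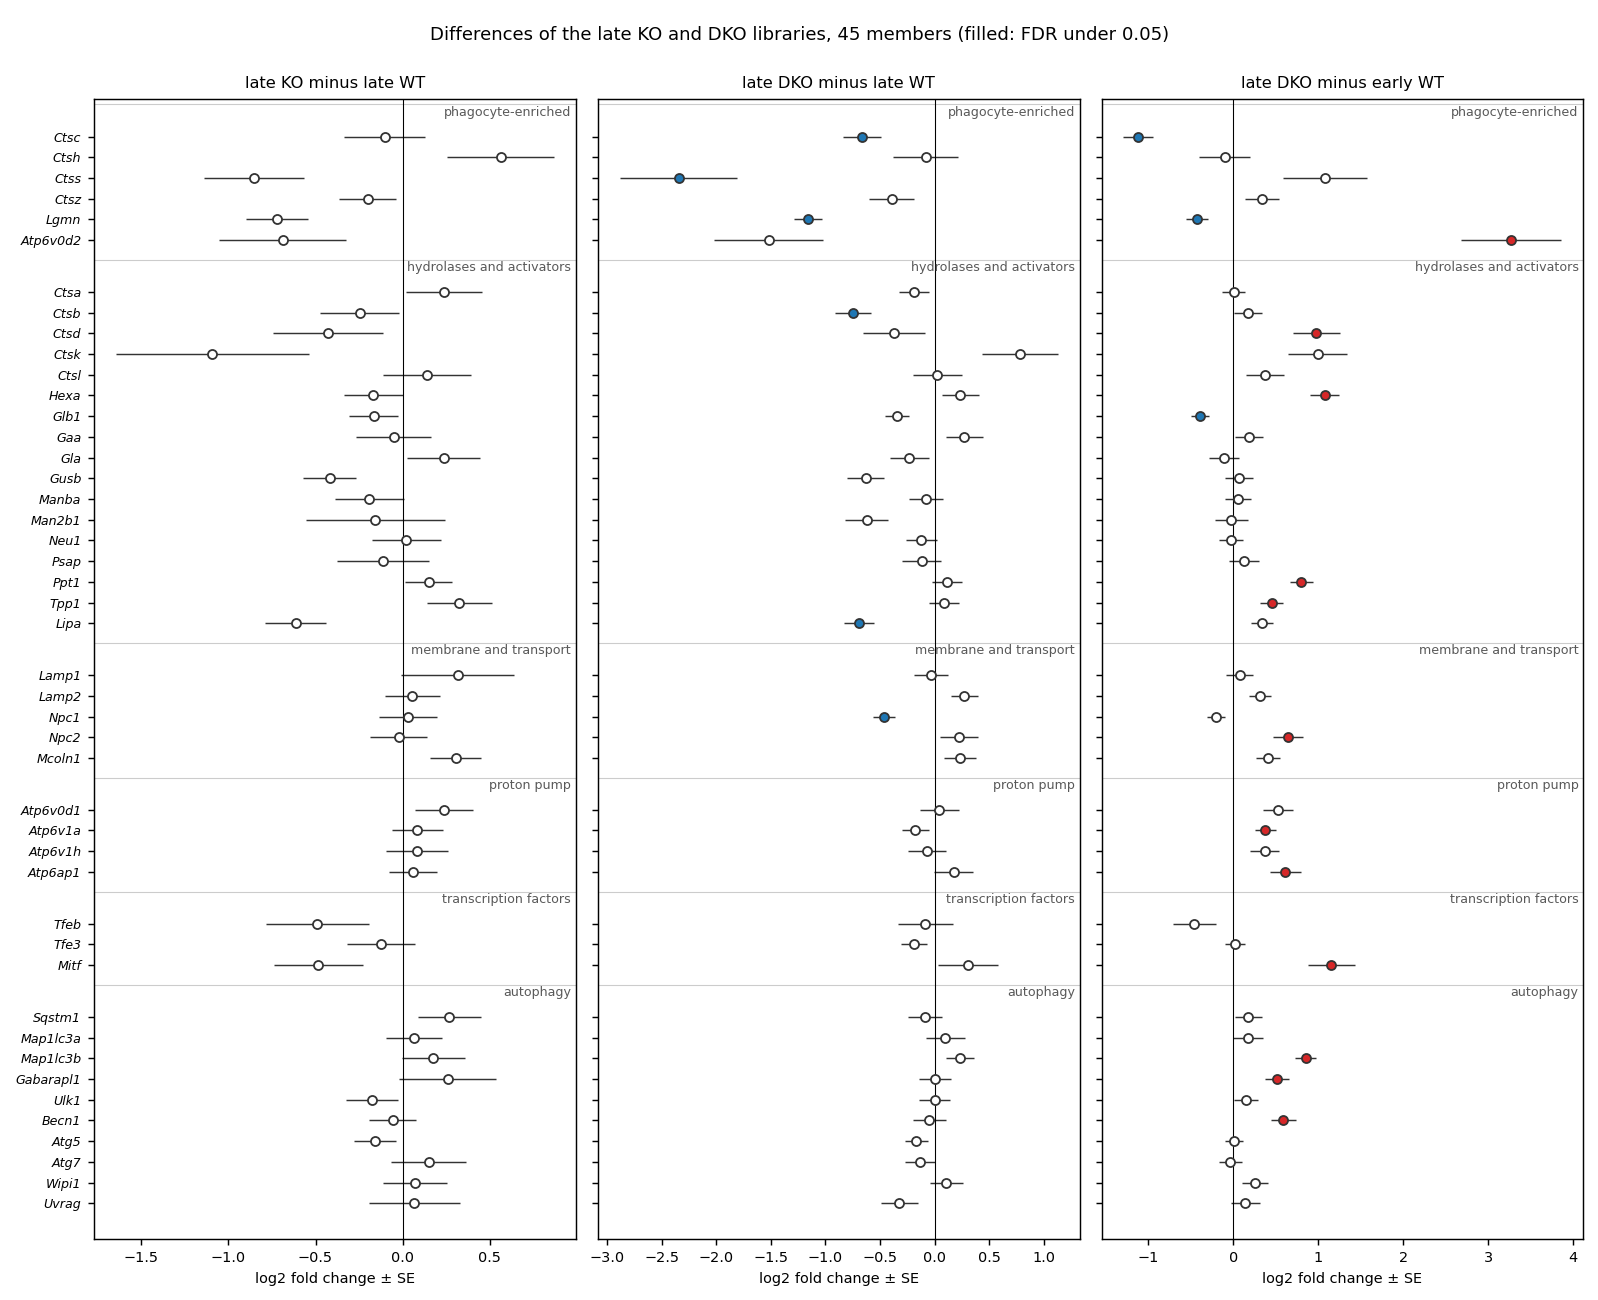
Log2 fold change ± SE (x axis, scaled per panel) for the 45 members grouped by role (y axis): late KO against late WT, late DKO against late WT, and late DKO against early WT MEFs; filled points passed an FDR of 0.05. There were 0, 6 and 15 filled points, and the 6 of the middle panel lay left of 0 whereas 12 of the 15 in the right panel lay right of it.

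The phagocyte-enriched genes summed to 1029.6, 990.4, 1164 and 1348 CPM in early WT, 2299, 2644, 2756 and 1904 in late WT and 1469, 1119.8 and 941 in DKO libraries of the S6K1/S6K2 set, so all DKO libraries lay below late WT, with replicate 1 above, replicate 2 within and replicate 3 below the early range. The general members summed to 13293, 12623, 15326 and 18132 CPM in early WT, 22180.0, 23628, 25130.0 and 20349 in late WT and 21307, 20512 and 18372 in DKO libraries, so all DKO libraries lay above all early WT libraries and 2 of 3 within the late WT range. In KO libraries the phagocyte-enriched sum was 1070.0, 1292 and 1283 CPM, below all late WT libraries and above all early ones, and the general sum was 15497, 17378 and 18261 CPM, overlapping late WT. Such sums weigh abundant genes most, and members of a class differed. Among the general members Lipa, Ctsb and Npc1 fell in DKO against late WT MEFs. Of the phagocyte-enriched members, Ctsc and Lgmn were below and Atp6v0d2 above early WT in DKO MEFs.

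**Figure D5:**
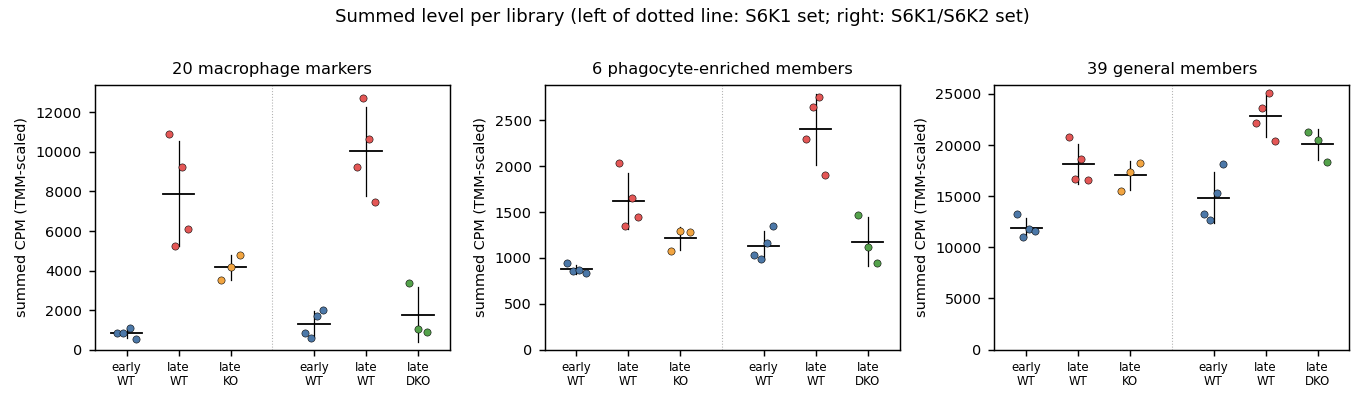
Summed TMM-scaled CPM per library (y axis, linear from 0) of 20 macrophage markers, 6 phagocyte-enriched members and 39 general members in the 6 groups; horizontal lines are means and vertical lines 1 SD. In DKO libraries the macrophage sum (896 to 3358 CPM) and the phagocyte-enriched sum (941 to 1469 CPM) overlapped early WT of the same set. The general sum (18372 to 21307 CPM) lay above early WT (12623 to 18132 CPM), by a narrow margin in the lowest DKO library.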

How the data were processed

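RNA from MEFs was sequenced by the authors, who deposited raw read counts per Ensembl gene for 22 libraries in 1 table. The study's methods name TopHat, HTSeq and mm9, whereas the submitters' processing notes name CASAVA, STAR 2.7.1a, DESeq2 1.28.1 and mm10, so the origin of the counts is uncertain. The identifiers paired with symbols through GENCODE vM1, an annotation of mm9, were 32589 of 55401. Strand use in counting is not given in the sources used here. All 45 members were matched, 2 of them by a synonym.

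The 3 groups of a MEF set were fitted together with edgeR 4.0.16 in R 4.3.3 (filterByExpr, TMM, robust quasi-likelihood F test), with Benjamini-Hochberg adjustment over all genes tested and a threshold of 0.05. Differences between sets were tested as interactions over all 22 libraries. The adjusted p-values in the text come from edgeR unless DESeq2 1.42.0, an alternative, is named. The script was tested on simulated data. In all 30 same-group pairs, libraries differed by more than sampling noise (chi-square per degree of freedom 20.6 to 266), so none was counted as a duplicate.

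The members and gene lists were chosen with earlier results of these data known. Named with values were the phagocyte-enriched genes, a fixed list of lysosome and autophagy markers, and the members that passed a test (of more than 12, the 12 with the smallest p). Members past that limit, and the members under an unadjusted threshold, were named after their values were seen. CPM were scaled by TMM within a set, and CPM per kilobase used the exon length of GENCODE vM1. Promoter sequences and coordinates are from RefSeq, GRCm38.p6. Alternatives were RLE scaling, no low-count filter, all 6 groups or only 2 groups in a fit, a Y-linked covariate, DESeq2 and leaving out each library. The comparisons of late KO and late DKO with early WT were added after the levels had been seen. The values of 1 gene of the wider pathway list are not reported here.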

Additional observations from a re-analysis of the deposited data

Results flagged for a closer look

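In 124 groups of 4 libraries, over the 31 members named by rule, 1 sample stood far from the others by Dixon's criterion for 4 samples, a criterion that chance meets in about 1 in 20 groups. Ulk1 was at 28.068 CPM in S6K1 late WT replicate 3 and at 22.3 to 22.8 CPM in the other 3 libraries of that group, a gap of 0.900 of the range. Ulk1 did not pass a test in any comparison.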

How the results depend on the processing

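No paired analysis was possible because the labels give no replicate numbers that groups share, and do not say which libraries came from the same embryo. The count of members called in the passage comparison of the S6K1 set was 11, and it was 18 with all 6 groups in 1 fit, 23 with the Y-linked covariate and 20 with DESeq2. Leaving out 1 library gave 6 to 16, with 6 without late WT replicate 1 and 7 without early WT replicate 2. For S6K1 KO against late WT it was 0 and DESeq2 gave 2. For DKO against late WT it was 6, DESeq2 gave 10, and leaving out 1 library gave 1 to 6, with 1 without DKO replicate 2, 1 without DKO replicate 3 and 2 without late WT replicate 2. For late KO against early WT it was 12, a fit of only 2 groups gave 6 and the Y-linked covariate gave 8. Leaving out 1 library gave 3 to 12: 5 without early WT replicate 2 or 4 or KO replicate 1, 4 without KO replicate 2 and 3 without KO replicate 3. For late DKO against early WT it was 15, and leaving out 1 library gave 5 to 18: 5 without DKO replicate 2, 9 without DKO replicate 1 or 3, 6 without early WT replicate 1 or 2 and 9 without early WT replicate 3. The cause of these changes was not tested. The passage count of the S6K1/S6K2 set, 16, was 13 to 19 under the other settings and 11 to 19 without 1 library, and both interaction counts were 0 under every alternative run. No value changed sign while called. Over all genes, DESeq2 called 2655, 266, 2845 and 1206 genes where edgeR called 1827, 6, 1892 and 686 (passage and KO in the S6K1 set, passage and DKO in the other), and the Y-linked covariate gave 3265, 38, 1524 and 557. Of the 6 members lower in DKO than late WT MEFs, Ctsc lost its call in 10 of 11 fits without 1 library, Npc1 in 5, Ctss and Ctsb in 4, Lipa in 2 and Lgmn in 0. Low counts limit Atp6v0d2, whose early WT libraries held 0 to 9 reads.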
